A study of Mus musculus with 6 samples.

Results

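The gene of the cell cycle inhibitor p21, Cdkn1a, was followed together with the tumour suppressor gene Trp53 and 8 genes that p53 is known to switch on (Mdm2, Bax, Ccng1, Bbc3, Zmat3, Phlda3, Sesn1 and Trp53inp1) in mouse hearts with and without Trex1. A probe set is the group of short probes that reads 1 transcript on the array. Members were found by symbol in the platform's annotation, which named 17 probe sets of 8 of the 10 genes, out of 45037 probe sets that were not array controls. Trp53 and Bax were not matched and are not analysed here. RNA came from heart ventricle tissue of 6 mice, with 1 biotin-labelled Affymetrix-type array per mouse. In the Trex1 WT group 3 mice had intact Trex1 on a Rag2 knockout background, and in the Trex1 KO group 3 mice lacked both Trex1 and Rag2, so that all 6 animals shared the loss of Rag2. Each Trex1 KO animal had a Trex1 WT littermate in the study, which gave 3 pairs (A, B and C). The sources used here name no strain, age or sex.

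Trex1 is an exonuclease that removes DNA from the cytosol, and without Rag2 no mature T or B lymphocytes form. p53 is a transcription factor that becomes stable when DNA is damaged or a cell is otherwise stressed. It binds DNA as a tetramer at paired short half-sites and raises genes that halt the cell cycle (Cdkn1a), limit p53 itself (Mdm2, Ccng1), or promote cell death (Bax, Bbc3, Phlda3). p21 blocks cyclin-dependent kinases, and its gene also answers to signals that do not pass through p53. Heart muscle cells of adult mice divide rarely.

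The sequences before the starts of Cdkn1a are shown because this gene had the largest difference among the members, and those of Mdm2 and Ccng1 because they hold a p53 half-site as well and had estimates near 0. Each is the 250 bases upstream of an annotated RefSeq start in build GRCm38.p6, and capitals mark matches to the p53 half-site consensus, searched on both strands (it reads the same on either). RefSeq gave windows for 8 of the 10 genes, 12 windows in all, and none for Zmat3 and Trp53inp1. The 2 starts of Cdkn1a lie 2790 bases apart.
Cdkn1a, upstream start, chr17:29090729-29090978, plus strand: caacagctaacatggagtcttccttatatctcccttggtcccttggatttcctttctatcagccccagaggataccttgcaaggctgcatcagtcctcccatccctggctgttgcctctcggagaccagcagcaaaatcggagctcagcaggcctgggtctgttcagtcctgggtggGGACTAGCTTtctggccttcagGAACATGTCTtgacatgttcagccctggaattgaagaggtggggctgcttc
Cdkn1a, downstream start, chr17:29093519-29093768, plus strand: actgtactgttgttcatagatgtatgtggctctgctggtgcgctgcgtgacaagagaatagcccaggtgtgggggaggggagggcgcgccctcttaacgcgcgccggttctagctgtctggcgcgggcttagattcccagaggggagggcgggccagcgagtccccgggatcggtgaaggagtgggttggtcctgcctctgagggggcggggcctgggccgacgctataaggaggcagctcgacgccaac
Mdm2, chr10:117710759-117711008, minus strand: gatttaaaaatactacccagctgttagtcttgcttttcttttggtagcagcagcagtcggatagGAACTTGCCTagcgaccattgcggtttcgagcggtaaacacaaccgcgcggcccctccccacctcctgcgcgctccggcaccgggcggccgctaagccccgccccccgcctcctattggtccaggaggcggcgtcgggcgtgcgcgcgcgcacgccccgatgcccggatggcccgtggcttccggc
Ccng1, chr11:40755287-40755536, minus strand: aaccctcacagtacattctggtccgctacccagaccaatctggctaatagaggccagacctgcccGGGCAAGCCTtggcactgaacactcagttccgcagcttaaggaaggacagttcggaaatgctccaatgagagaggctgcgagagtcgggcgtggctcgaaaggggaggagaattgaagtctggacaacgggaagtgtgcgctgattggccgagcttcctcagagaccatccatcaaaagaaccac
The upstream Cdkn1a window held 2 half-site matches, GGACTAGCTT from base 73 and GAACATGTCT from base 51 before the start, and the downstream window held none. Mdm2 had 1 match (GAACTTGCCT, from base 186) and Ccng1 had 1 (GGGCAAGCCT, from base 185). A match was present in 6 of the 12 windows of the listed genes and in 7.13% of all 32851 windows of this length. Besides those shown, the matched windows were 1 each of Trp53, Bax and Sesn1, and Trp53 and Bax have no array values here. The interferon-linked motifs TTCNNNGAA (in 7.02% of all windows) and GAAA followed by any 2 bases and a further GAAA (in 2.98%), also searched on both strands, were in 0 of the 12. A match describes letters in these windows and not a bound site.

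The labels were checked first. The probe set of Trex1, which the annotation shares with a neighbouring gene, had signals of 714, 340 and 887 in Trex1 WT hearts (pairs A to C) and 9.45, 20.6 and 34.2 in the matching Trex1 KO hearts. Rag2 was dim in both groups (means of 51.5 and 76.2). Trex1 WT B, Trex1 KO A and Trex1 KO B (83.7, 91.3 and 82.1) lay above the highest signal of control probe sets without a target in the sample (69.8), and the remaining arrays below it. No heart with intact Rag2 was there to compare, so this does not check the loss of Rag2. Of 8 cardiomyocyte markers all were bright enough to test, and of 6 T and B lymphocyte markers on the array only Cd8a was. The Actb 3' to 5' signal ratio, which rises as RNA degrades, ran from 1.80 to 2.29 in Trex1 WT and from 1.60 to 1.68 in Trex1 KO without overlap (two-sided exact permutation p = 0.1, the lowest value possible for groups of 3). The Gapdh ratio overlapped (0.850 to 0.925 against 0.841 to 0.885, exact permutation p = 0.2). Both ratios were lower in the Trex1 KO animal of all 3 pairs. The mean 18S signal ran from 661 to 10785 in Trex1 WT and from 666 to 2962 in Trex1 KO (exact permutation p = 0.4). Their part in the results that follow was not tested beyond a fit with the Actb ratio as a covariate. In bulk tissue, fewer cells of a type and less RNA per cell cannot be told apart.

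Cdkn1a was higher in the Trex1 KO heart of every littermate pair. It passed the test in the fit with littermate pairs as a block and not in the fit without it. No other member passed in either of these fits. Each gene is represented by its brightest probe set unless stated, and differences are Trex1 KO minus Trex1 WT on the log2(signal + 16) scale, tested with limma over all 27022 probe sets above an intensity filter (threshold 0.05 after Benjamini-Hochberg adjustment). In that fit 0 of the 8 members were higher and 0 lower, against 0.312% and 0.039% of the 12811 genes tested. The same held for their 16 tested probe sets, against 0.218% of all probe sets higher and 0.0259% lower. With littermate pairs as a block, 1 member (Cdkn1a) rose and 0 fell, where 0.531% and 0.0937% of genes passed. At an unadjusted p under 0.05, 3 members were higher (Cdkn1a, Phlda3 and Trp53inp1), against 3.03% of genes, and 0 were lower, against 2.26% (5.29% in either direction). The median difference was 0.11 over the 8 members and -0.02 over all tested genes, with 4 members above 0 and 4 below. Cdkn1a, Phlda3 and Zmat3 were higher in all 3 pairs, as were 13.1% of genes, and 0 members were lower in all 3, against 17.9%. The groups did not overlap for 1 of the 8 members (Cdkn1a, all Trex1 KO above all Trex1 WT), a pattern seen in 5.03% of genes. For 0 members were all Trex1 KO below all Trex1 WT animals, against 5.83% of genes.

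**Figure D1:**
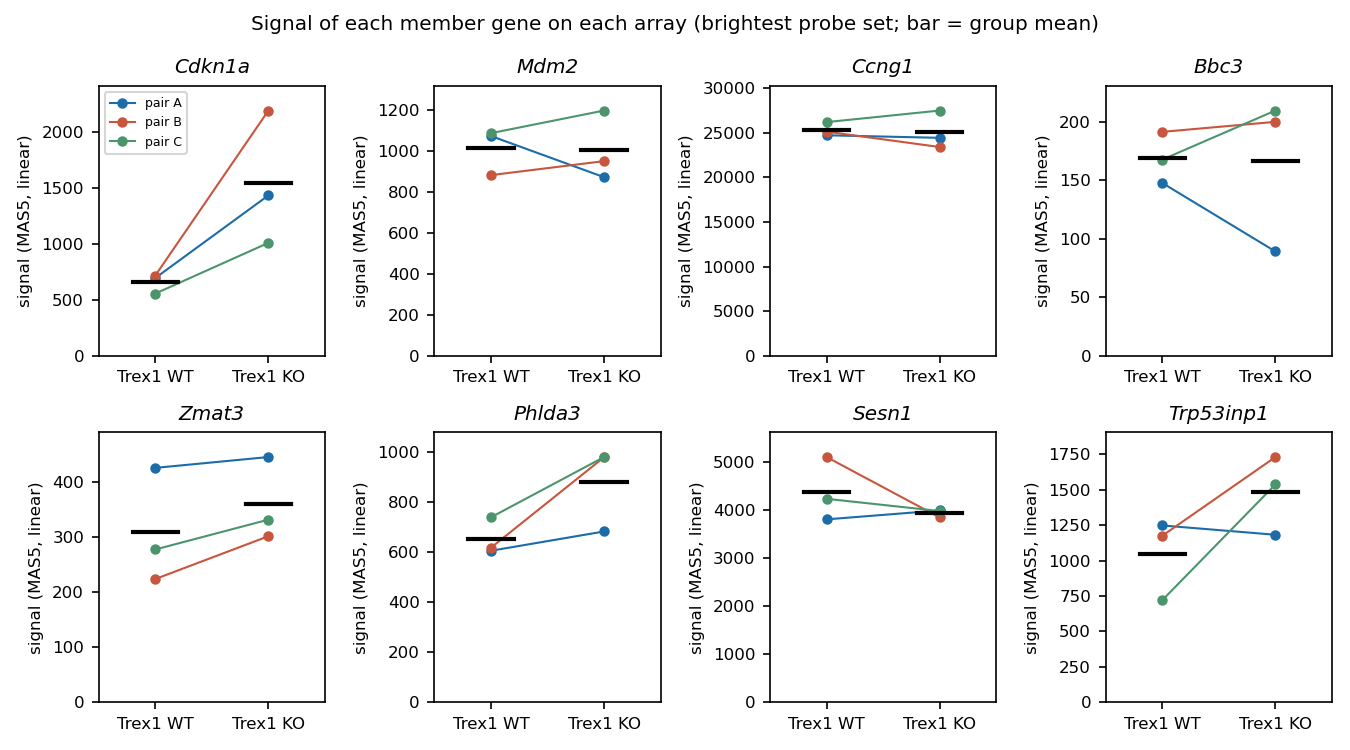
Signal (linear MAS5 units, vertical axis from 0) of the brightest probe set of each of the 8 members on each of the 6 arrays. Points are animals, coloured lines join littermates and black bars are group means. For Cdkn1a the Trex1 KO animals lie between 1009.6 and 2191, all above the Trex1 WT animals, and the other 7 members overlap between the groups.

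Cdkn1a encodes p21, which stops the cell cycle by inhibiting cyclin-dependent kinases. Its brighter probe set had signals of 695, 717 and 556 for Trex1 WT, in the order A, B, C, and 1434, 2191 and 1009.6 for Trex1 KO in that order. The lowest Trex1 KO value lay above the highest Trex1 WT value, and the Trex1 WT animals lay much closer together (656 ± 87.2, SD, n = 3) than the Trex1 KO animals (1545 ± 599, SD, n = 3). The difference was 1.15 (SE 0.24, 95% interval 0.62 to 1.69), a 2.22-fold higher level. It did not pass the limma fit without the block (adjusted p = 0.175, unadjusted p = 0.000714) and passed with littermate pairs as a block (limma adjusted p = 0.0125, SE 0.15). By pair the difference was 1.03 in A, 1.59 in B and 0.84 in C. Of 12811 genes, Cdkn1a ranked 71st by difference and 72nd by p. Pair B held the highest Trex1 KO value, and without Trex1 KO B the difference was 0.87 (limma adjusted p = 0.365). Without Trex1 KO C, the lowest of the Trex1 KO animals, it was 1.42 and passed (limma adjusted p = 0.0483). Fitted with the Actb ratio as covariate, it was 1.31 and did not pass (limma adjusted p = 0.618).

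The second probe set of Cdkn1a was dimmer, with 2 of its 3 Trex1 WT signals at background level. Its signals were 87.4, 57.5 and 18.04 in Trex1 WT mice (pairs A, B, C) and 147, 424 and 211 in the Trex1 KO mice of those pairs. All Trex1 KO animals lay above all Trex1 WT animals, but Trex1 WT B and C were under the highest signal of the bacterial and phage control probe sets that have no target in the sample (69.8). The fitted difference did not pass without the block (limma adjusted p = 0.274) or with it (0.127). Its size is not an exact value, since it was 1.99 with the pseudocount of 16, 2.36 with 1 and 1.41 with 64. Differences by pair are not given, since those of B and C would be taken against values not above the controls.

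**Figure D2:**
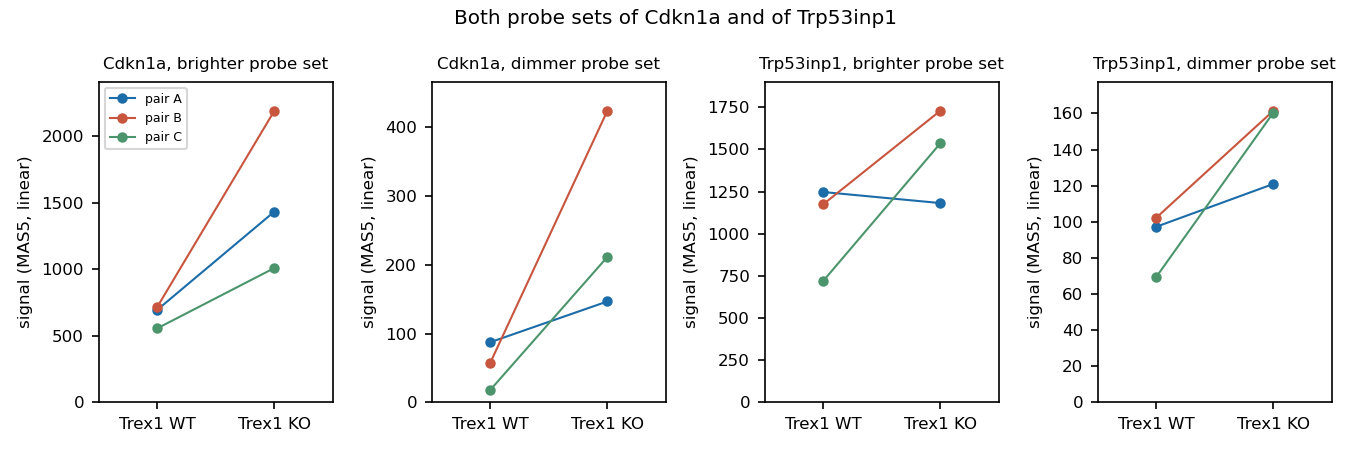
Signals (linear MAS5 units, vertical axes from 0) of the brighter and dimmer probe sets of Cdkn1a and Trp53inp1 on the 6 arrays, with littermates joined by lines. Both Cdkn1a probe sets and the dimmer Trp53inp1 probe set have all Trex1 KO animals above all Trex1 WT animals, while on the brighter Trp53inp1 probe set pair A runs slightly downward, from 1247 to 1182.

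No gene of those that act back on p53 passed in either fit. Mdm2, the ubiquitin ligase that marks p53 for destruction, had signals of 1074, 883 and 1088 in Trex1 WT hearts (pairs A to C) and 873, 951 and 1198 in the matching Trex1 KO hearts. The groups overlapped and the difference was -0.02 (SE 0.15, 95% interval -0.35 to 0.32, limma adjusted p = 0.996). A second Mdm2 probe set gave 0.15 (95% interval -0.18 to 0.48, limma adjusted p = 0.959). The third had means of 42.3 and 32.4, under the highest control signal, and was not tested. Both intervals of Mdm2 lie below a doubling, which is 1 on this scale.

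Ccng1 encodes cyclin G1, a p53 target that binds a protein phosphatase and Mdm2. It gave signals of 24721, 25125 and 26195 for Trex1 WT, in the order A, B, C, and 24435, 23404 and 27493 for Trex1 KO in that order. The spread within groups exceeded the gap between their means, and the difference was -0.02 (SE 0.10, 95% interval -0.23 to 0.20, limma adjusted p = 0.994). The other Ccng1 probe sets gave 0.03 and 0.29 (limma adjusted p = 0.991 and 0.955), and on the one with 0.29 the animals of pairs A and B were higher in Trex1 KO (0.58 and 0.47) and those of pair C lower (-0.18).

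Trp53inp1 encodes a stress-induced nuclear protein that strengthens p53 activity and takes part in autophagy. Its brighter probe set had signals of 1247, 1175 and 720.3 in Trex1 WT mice (pairs A, B, C) and 1182, 1729 and 1537 in the Trex1 KO mice of those pairs. Trex1 KO A lay below Trex1 WT A, so the groups overlapped. The difference was 0.52 (SE 0.21, 95% interval 0.04 to 0.99), with an unadjusted p of 0.0352 in limma and adjusted p-values of 0.890 without and 0.507 with the block. Leaving out Trex1 WT C gave 0.27, and adding the Actb ratio as covariate gave 1.08, neither of which passed. Its dimmer probe set had signals of 97.2, 102 and 69.5 in Trex1 WT hearts (pairs A to C) and 121, 161 and 160.4 in the matching Trex1 KO hearts, without overlap and with Trex1 WT C just under the highest control signal. That difference was 0.64 (SE 0.25, limma adjusted p = 0.873 without and 0.583 with the littermate block), and by pair it was 0.27, 0.59 and 1.05. Of the 16 member probe sets tested, 3 had all Trex1 KO above all Trex1 WT animals (both of Cdkn1a and this one), against 5.57% of all probe sets, and 1 had them all below, against 4.99%.

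Of the cell death genes, Phlda3 was higher in each pair without passing, and Bbc3 had an estimate near 0 with a wide interval. Phlda3 encodes a small protein that holds back the survival kinase Akt. Its signals were 605, 617 and 738 for Trex1 WT, in the order A, B, C, and 682, 978 and 979 for Trex1 KO in that order. Trex1 KO A lay below Trex1 WT C, so the groups overlapped, although each Trex1 KO animal exceeded its littermate. The difference was 0.41 (SE 0.17, 95% interval 0.04 to 0.78, unadjusted p = 0.0349 and adjusted p = 0.890 in limma, adjusted p = 0.434 with the block), and 0.16 with the Actb ratio as covariate (limma adjusted p = 0.935). Bbc3 encodes PUMA, which frees Bax and its relative Bak to open the mitochondrial membrane. It had signals of 148, 192 and 168 in Trex1 WT mice (pairs A, B, C) and 89.3, 200.2 and 209.8 in the Trex1 KO mice of those pairs. Its lowest and its highest value both came from Trex1 KO animals, and the difference was -0.09 (SE 0.30, 95% interval -0.77 to 0.58, limma adjusted p = 0.988). This interval includes changes of more than 1.5-fold in a downward direction.

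Zmat3 and Sesn1 act in growth control and stress metabolism. Zmat3 encodes an RNA-binding zinc finger protein that p53 induces. Its signals were 425, 224 and 277 in Trex1 WT hearts (pairs A to C) and 445, 301 and 331 in the matching Trex1 KO hearts. Pair A was the highest in either genotype. Within pairs the Trex1 KO animal exceeded its littermate by 0.06 (A), 0.40 (B) and 0.24 (C). The difference was 0.24 (SE 0.24, 95% interval -0.30 to 0.78, limma adjusted p = 0.959, and 0.732 with the block). Single arrays set its size, which was 0.48 without Trex1 WT A, 0.080 without Trex1 KO A and 0.042 without Trex1 WT B. Sesn1 encodes sestrin 1, which restrains the growth kinase complex mTORC1. Its brightest probe set had signals of 3811, 5109 and 4239 for Trex1 WT, in the order A, B, C, and 3997, 3850.2 and 3984 for Trex1 KO in that order. The groups overlapped, and the difference was -0.14 (SE 0.12, 95% interval -0.40 to 0.12, limma adjusted p = 0.955). The 3 further Sesn1 probe sets gave -0.22, -0.08 and 0.14, and none passed (limma adjusted p from 0.951 to 0.984). On the one with -0.22 all Trex1 KO animals lay below all Trex1 WT animals.

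**Figure D3:**
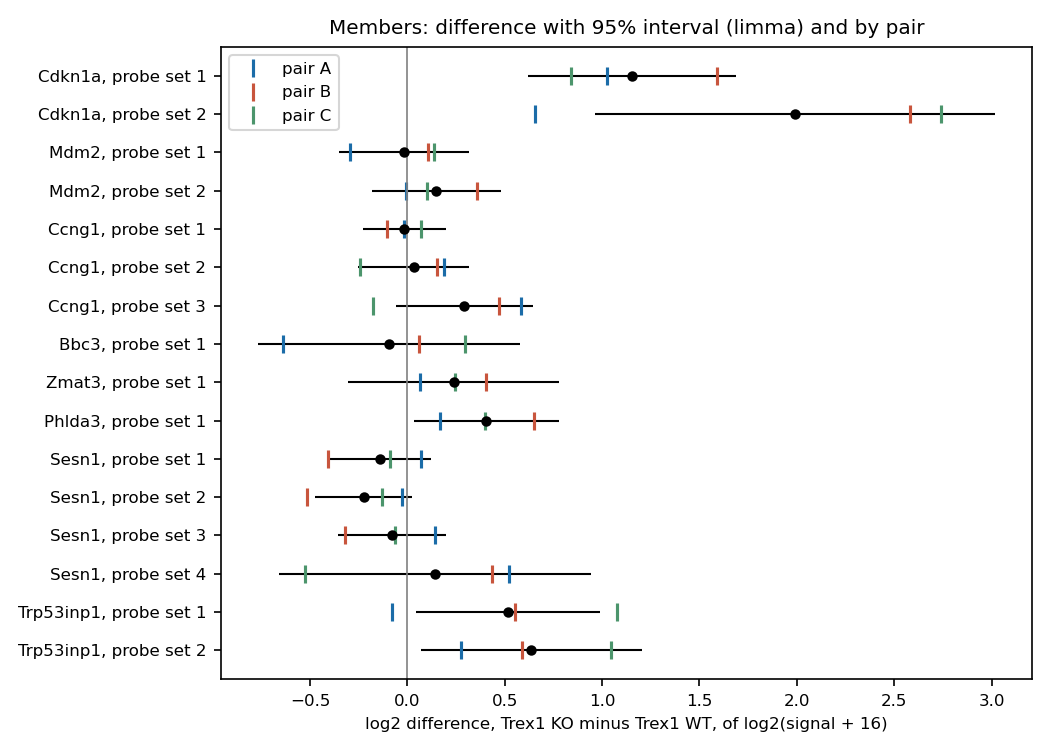
Log2 differences (Trex1 KO minus Trex1 WT of log2(signal + 16), horizontal axis) of the 16 tested member probe sets, numbered from the brightest within each gene. Black points and lines are the limma estimate and its 95% interval, and coloured ticks are the 3 littermate pairs. The interval of the brighter Cdkn1a probe set runs from 0.62 to 1.69. The positions of the dimmer one and of its pair ticks depend on the pseudocount, as its Trex1 WT signals were mostly at background. The intervals of Mdm2, Ccng1, Bbc3, Zmat3 and Sesn1 include 0.

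Other genes of the pathway, in 6 lists, gave 0 calls in either direction, with or without the littermate block. Over all tested genes, 0.312% were called higher and 0.039% lower without the block, and 0.531% and 0.0937% with it. Of 32 tested other p53 targets, 17 lay above 0 and 15 below, with a median difference of 0.02 (range -0.36 to 0.45). At an unadjusted p under 0.05 in limma, 0 were higher and 1 lower, against 3.03% and 2.26% of all tested genes. That one was Ercc5, a nuclease of DNA repair, with signals of 554 ± 39.9 and 440.0 ± 47.8 (SD, n = 3) and a difference of -0.32 (limma adjusted p = 0.917). The stress gene Gadd45a and the antiproliferative gene Btg2, named after their values were seen, gave 0.26 and 0.44 (limma adjusted p = 0.954 and 0.955).

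Of 21 tested regulators and partners of p53, 2 were higher and 0 lower at an unadjusted limma p under 0.05. The shares of all tested genes at that level were 3.03% and 2.26%, and the median of the list was -0.02. Pml, the scaffold of nuclear bodies that recruit p53, had the smallest p, with signals of 159 ± 22.1 and 240.4 ± 14.6 (SD, n = 3), differing by 0.56 (limma adjusted p = 0.776). Daxx, a protein of the same bodies named after its value was seen, gave 0.47 (limma adjusted p = 0.777). Mdm4, the relative of Mdm2 that silences p53, gave -0.25 (limma adjusted p = 0.955, named after its value was seen). In the Bcl-2 family and caspase list 17 genes were tested, with a median of -0.07 and 13 below 0, and at an unadjusted limma p under 0.05 the count was 0 in both directions. The survival gene Bcl2l2 had the smallest p (difference -0.25, limma adjusted p = 0.955). Among 6 tested relatives of the sestrins and of Trp53inp1, Ccng1, Zmat3 and Phlda3, the count at that level was also 0, the median was 0.01 and Phlda1 had the smallest p (0.46, limma adjusted p = 0.955), with 0.11 when Trex1 KO B was left out and 0.84 when Trex1 KO C was.

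The list of CDK inhibitors, cyclins, CDKs and pocket proteins bears on what p21 acts upon. Of 19 tested members 14 lay above 0, with a median of 0.04. At an unadjusted limma p under 0.05, 3 were higher (Ccnd1, Ccnd2 and Cdk6) and 1 (Cdkn1b) lower. The shares of all tested genes were 3.03% and 2.26%. Cdk6 gave 0.49 (limma adjusted p = 0.917) and was higher in the Trex1 KO animal of all 3 pairs. Cdkn1b, which encodes p27, a relative of p21, had signals of 1012, 1276 and 1090.2 in Trex1 WT mice (pairs A, B, C) and 779, 711 and 865 in the Trex1 KO mice of those pairs. All Trex1 KO animals lay below all Trex1 WT animals, a pattern seen in 5.83% of genes. The direction of Cdkn1b was the opposite of that of Cdkn1a, but the difference of -0.51 (SE 0.13) missed the threshold in both fits (limma adjusted p = 0.442 without and 0.267 with the littermate block). The third member of that family, Cdkn1c, which encodes p57, gave -0.20, and the INK4 inhibitor gene Cdkn2b had dim, overlapping signals (63.2 ± 38.9 and 118 ± 53.9, SD, n = 3). The cyclin D genes, partners of the kinases of early cell cycle, gave 0.37 for Ccnd1, 0.42 for Ccnd2 and 0.16 for Ccnd3 (limma adjusted p = 0.699, 0.826 and 0.956). Pcna, the replication clamp that p21 also binds, gave -0.01, and the mitotic kinase gene Cdk1 gave 0.36 (limma adjusted p = 0.997 and 0.955). Apart from Cdkn1b, these genes were named after their values were seen.

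Another list held transcription regulators that can act on Cdkn1a by other routes, together with Gadd45b and Gadd45g. Over its 19 tested genes the median was 0.04, with 10 above 0 and 9 below. At an unadjusted limma p under 0.05, 2 were higher and 0 lower, against 3.03% and 2.26% of all tested genes. Sp1, a factor that binds GC-rich promoters, had the smallest p, with signals of 1253 ± 70.7 and 1516 ± 82.6 (SD, n = 3) and a difference of 0.27 (limma adjusted p = 0.871). The differences of the list ran from -0.29 for the interferon regulatory factor gene Irf1 (limma adjusted p = 0.939) to 0.53 for Gadd45b. Irf1, Gadd45b and Gadd45g were named after their values were seen.

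**Figure D4:**
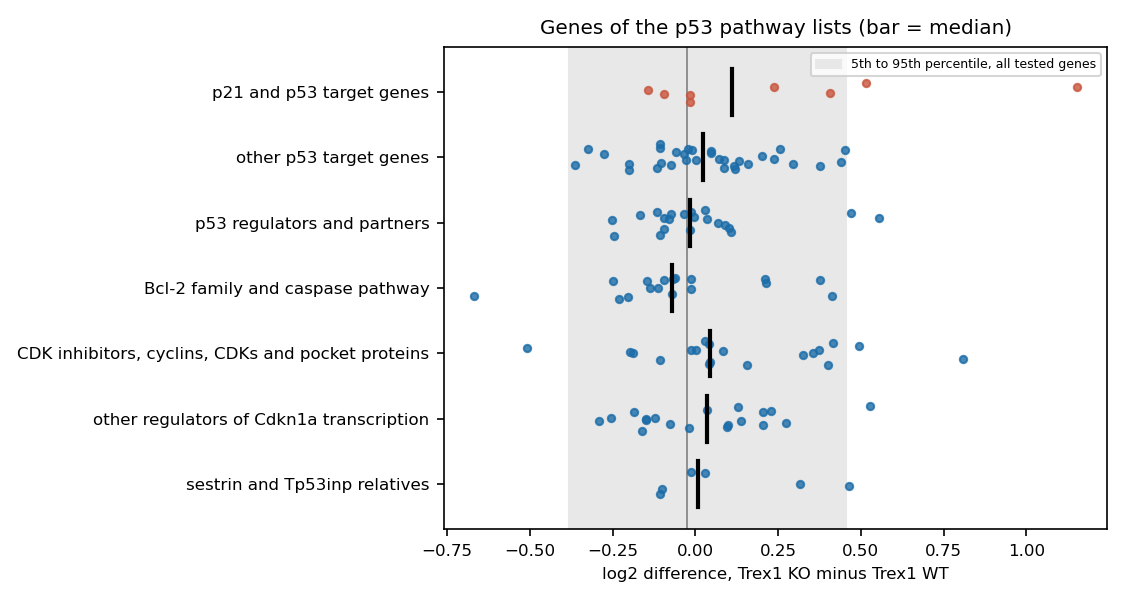
Log2 differences (Trex1 KO minus Trex1 WT, horizontal axis) of every tested gene in the member list (red) and the 6 pathway lists (blue), 1 point per gene, with black bars at the medians. The grey band spans the 5th to 95th percentile of all 12811 tested genes and the grey line their median. Cdkn1a is the point furthest to the right, at 1.15, and the medians of the 6 pathway lists lie between -0.07 and 0.04.

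The genes whose levels followed Cdkn1a most closely over the 6 arrays were Slfn8, Haus5, Apod, Marchf5 and Msrb1, with Pearson correlations of 0.990, 0.988, 0.987, 0.985 and 0.982. These were picked as the highest of all tested genes outside the list and off the sex chromosomes, and the 6 points share the 2 genotypes, so the values describe the arrays only. In all 5 genes the Trex1 KO animals lay above the Trex1 WT animals, a pattern seen in 5.03% of genes. Cdkn1a has this pattern itself, so it largely follows from picking genes by their correlation with Cdkn1a and is no separate result. Slfn8, of the Schlafen family, had signals of 181.3, 181.2 and 121 in Trex1 WT hearts (pairs A to C) and 447, 589 and 248 in the matching Trex1 KO hearts, with pair C lowest in both genotypes. Its difference was 1.27, past the threshold only with littermates as a block (limma adjusted p = 0.0295, and 0.288 without). Apod, a lipid-binding lipocalin, gave 1.77 and passed in both fits (limma adjusted p = 0.0483 without and 0.000642 with littermates as a block). Haus5, Marchf5 and Msrb1 differed by 0.31, 0.26 and 0.21 and did not pass. Among the members, the dimmer Cdkn1a probe set correlated with the brighter at 0.907. The probe sets of Trp53inp1 followed at 0.742 and 0.817 and Phlda3 at 0.589. Of the genes compared, 4.51%, 2.44% and 10.3% were at or above these values. Zmat3 gave 0.26 and Bbc3 -0.10, and the brightest probe sets of Mdm2, Ccng1 and Sesn1 gave -0.36, -0.57 and -0.44. Their other probe sets ran from -0.21 to 0.20 for Mdm2, from -0.07 to 0.38 for Ccng1 and from -0.73 to -0.04 for Sesn1.

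**Figure D5:**
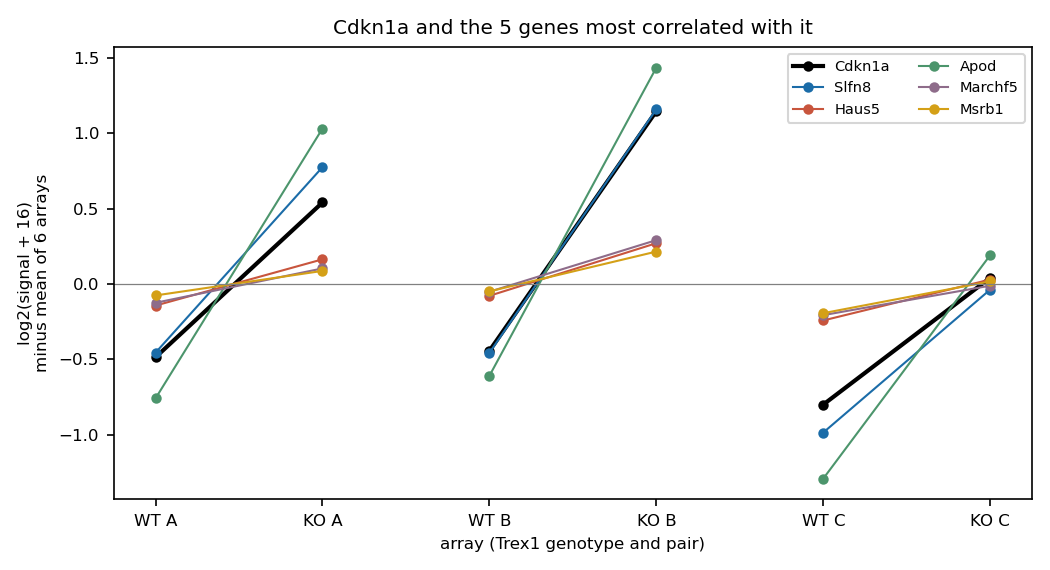
Level of Cdkn1a (black) and of the 5 genes most correlated with it, as log2(signal + 16) minus the gene's mean over the 6 arrays, for each array, with littermates joined by lines. Each of the 6 genes is higher in the Trex1 KO animal of every pair, and Trex1 KO B is the highest array for all of them. The 5 genes were picked for their correlation with Cdkn1a, so this shared shape largely follows from the choice.

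Markers of other cells were compared because Cdkn1a is made in many cell types. Of 10 marker lists, the summed signals overlapped between the groups for 8. Within littermate pairs, however, the sums of 8 lists were higher in the Trex1 KO animal of all 3 pairs, as Cdkn1a was. These were the fibroblast, macrophage, natural killer, adipocyte, erythroid, T and B lymphocyte, skeletal muscle and atrial lists. The endothelial sum was lower in all 3, and only the cardiomyocyte sum was mixed. The T and B lymphocyte sum gives no direction for these cells, since all its markers but Cd8a were too dim to test. Cd8a itself differed by -0.29 (-0.29, -0.73 and 0.14 in pairs A, B and C). Medians over the tested genes of a list could also go against its sum. They did so for the erythroid list in pair A (-0.12) and the endothelial list in pair C (0.02). The groups did not overlap for the atrial list, at 11343 to 19378 in Trex1 WT and 28573 to 36237 in Trex1 KO, nor for the skeletal muscle list, at 14472 to 18553 and 23194 to 24661. Nearly all of these sums came from Nppa, which encodes atrial natriuretic peptide, and Acta1, which encodes skeletal actin, both of which stressed ventricles also make (named after their values were seen). Nppa differed by 0.996 (limma adjusted p = 0.126 without the littermate block, 0.00886 with it) and Acta1 by 0.52 (limma adjusted p = 0.175 without, 0.0597 with it). The 3 tested atrial genes all lay above 0 (0.18 to 0.996, median 0.34). Their median was 0.79 in pair A, 0.48 in B and 0.91 in C, so Nppa was not alone in rising. Whether this came from ventricle cells or from atrial tissue in the samples was not tested. The skeletal muscle genes Myh1, Myh2, Myh4 and Myog and the atrial gene Sln were too dim to test. Natural killer markers (4 of 5 bright enough to test) summed to 478 to 745 in Trex1 WT and 638 to 2041 in Trex1 KO, with the highest value in Trex1 KO B, and adipocyte markers (2 of 5) to 50.5 to 132 and 129 to 885, with the highest in Trex1 KO C. Macrophage markers summed to 11130 to 17286 and 13482 to 17522. The part of these cells in the Cdkn1a difference was not tested.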

How the data were processed

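The authors deposited linear intensity values, 1 per probe set and array, and the submitters' processing notes name MAS5. The version and settings of MAS5 were not stated in these sources. After trimming 2% at either end each array had a mean of 500.0 in these values, so no further scaling was applied. Groups and pair letters came from the sample titles (which spell the gene Tre1 in pair C). The series' design text names the littermate pairs. Deviations from group means correlated at 0.147 to 0.192 within pairs and at -0.161 to 0.0101 otherwise, across probe sets.

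Intensities were converted to log2(signal + 16). Probe sets with a mean at or above the 40th percentile (signal 53.8) were tested, 27022 of 45037, with limma 3.58.1 in R 4.3.3 (lmFit and eBayes with an intensity trend, two-sided), leaving 4 residual degrees of freedom, or 2 when pairs were blocked. P-values were Benjamini-Hochberg adjusted over all of them. The script was tested on simulated data. Symbols came from the platform annotation, checked by Entrez identifier against RefSeq genes of GRCm38.p6 (0 changed): 34945 probe sets had a single symbol, 932 several and 9160 none. Members, lists and tests were chosen with earlier results of these data known. The text names all members, the gene with the smallest p in each list where none passed, and the 5 genes most correlated with Cdkn1a. Other genes are marked where they appear. Alternatives were the littermate block, pseudocounts of 1 and 64, other filters, no intensity trend, quantile normalization, the Actb ratio as a covariate, and leaving out arrays or pairs. The tests reflect only how much these 6 animals, hybridised to 1 array each, varied, and the number of arrays limits the precision.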

Additional observations from a re-analysis of the deposited data

How the results depend on the processing

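The Cdkn1a difference kept its direction under all 18 alternatives and did not pass in 16 of them. It passed with littermate pairs as a replicate block (1.15, limma adjusted p = 0.0125) and without Trex1 KO C. Leaving out 1 array gave 0.87 to 1.42. The count of member genes that were higher, and that of member probe sets called, was 1 with the replicate block and 0 to 1 when 1 array was left out. The block changed no other call among the members, and the counts of the 6 pathway lists stayed at 0 under every alternative. Without an intensity trend the limma adjusted p of Cdkn1a was 0.633, and without both animals of pair A it was 0.999957. When 1 array was left out it ran from 0.0483 to 0.494.

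Phlda3, Zmat3 and Trp53inp1 kept their direction under every alternative and passed in none, but their sizes moved by over 1.5 times. With the Actb ratio as a covariate Phlda3 gave 0.16, Zmat3 0.12 and Trp53inp1 1.08, and of the other genes Ercc5 gave -0.17, Bcl2l2 -0.016, Cdkn1b -0.32 and Sp1 0.16. Without pair A Trp53inp1 was 0.81 and without pair C 0.24, and without pair B Zmat3 was 0.15. Members near 0 changed sign, and none passed in doing so. Mdm2 gave -0.15 to 0.078 with 1 array left out, 0.12 without pair A and 0.15 on its second probe set. Ccng1 gave -0.083 to 0.033 with 1 array left out, 0.014 after quantile normalization, 0.026 without pair B, and 0.032 and 0.29 on its other probe sets. Bbc3 gave -0.29 to 0.26 with 1 array left out and 0.18 without pair A. Sesn1 gave 0.051 with the Actb ratio as a covariate and 0.14 on its dimmest probe set. The cause of these changes was not tested. With 3 arrays a group, intervals of single members spanned 0.43 to 2.05 on the log2 scale, and dim probe sets have the widest.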

Other observations

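Of the other p53 targets, 5 were too dim to test (Tnfrsf10b, Pmaip1, Plk3, Gtse1 and Zfp365). Pmaip1, which encodes the cell death protein NOXA and is named after its values were seen, had signals of 2.41, 24.7 and 28.4 for Trex1 WT, in the order A, B, C, and 46.4, 49.8 and 54.8 for Trex1 KO in that order. The groups did not overlap, but every value of Pmaip1 lay under the highest control signal of 69.8, so no difference is given. Gtse1 and Zfp365, also named after their values were seen, had all Trex1 KO above all Trex1 WT animals too. Only Trex1 KO C of Gtse1 and Trex1 KO B and C of Zfp365 exceeded that control signal. The groups overlapped for Tnfrsf10b and Plk3. Of tested genes 5.03% had all Trex1 KO above all Trex1 WT animals, but the share among genes too dim to test was not computed.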
